A study of Mus musculus with 96 samples.

Results

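Insulin-like growth factor 1 (IGF-1) and the proteins that carry it were followed as 8 genes of the 56748 in the deposited gene count table: Igf1, Igf2, Igfals, Igfbp1, Igfbp2, Igfbp3, Igfbp4 and Igfbp5. They were taken by gene symbol, and each symbol matched 1 row of the table. RNA was sequenced from liver, skeletal muscle and cerebral cortex of mice fed ad libitum (AL) or kept on intermittent fasting (IF), with 8 mice in each group of tissue, sex and diet. Mice 1 to 8 (AL) and 9 to 16 (IF) were labelled male, and mice 25 to 32 (AL) and 33 to 40 (IF) female. The males were C57BL/6 mice that entered the diets at 6 weeks of age and stayed on them for 4 months, with a fast of 16 h a day in the IF group. By the authors' account the IF males were culled at the end of the fasting window. The cull hours they give run past the end of the daily fast, and the time each mouse had been without food is not given. For the females the labels give tissue, sex and diet, and their strain, age, fasting hours and time on the diet were not given in the sources used here. Sex and mouse cohort therefore cannot be told apart in any comparison of females with males.

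IGF-1 is made mainly by hepatocytes in response to growth hormone and circulates bound to binding proteins, most of it in a ternary complex of IGF-1, Igfbp3 or Igfbp5 protein and the acid-labile subunit encoded by Igfals. The binding proteins prolong the life of IGF-1 in blood and control its access to the IGF-1 receptor, and hepatic Igfbp1 is known for its rise in fasting, when insulin falls and FoxO factors are active. Igf2, the second ligand, is a fetal growth factor that is largely silenced in rodent liver after birth.

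Total counts per library ran from 26097314 to 49838004 over the 95 libraries used. They ran from 26097314 to 44763638 in liver, from 28319147 to 49838004 in muscle and from 31231970 to 40235336 in cortex. Levels are CPM, a gene's count scaled to the total count of its library, and levels of different genes are compared only as CPM per kilobase of the deposited gene length (RPKM). A count of 0 in a library allows up to 3 counts, at most 0.115 CPM in liver, and covers counting error only. The library of AL mouse 1, labelled male cortex, held 10219 counts of Xist and 0 of Ddx3y and was left out, so the male AL cortex group has 7 mice. Xist and Ddx3y fitted the label in the other 95 libraries. Liver libraries summed to 50162 to 75831 CPM over 5 hepatocyte markers in AL males, muscle libraries to 129105 to 138436 CPM over 5 muscle fibre markers, and cortex libraries to 5487 to 6775 CPM over 5 neuronal markers, with no marker at 0 in its own tissue. In these bulk libraries, fewer cells of a type and less RNA per cell cannot be told apart.

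In the GRCm39 annotation the 8 genes lie on 5 chromosomes, and 4 of them form neighbouring pairs. The ligand gene Igf1 (ENSMUSG00000020053) on chromosome 10 from 87694127 to 87772904 runs on the plus strand. The antisense gene Igf1os overlaps it but shares no exonic base with it, and had 102 to 5441 counts in a liver library. The other ligand gene, Igf2 (ENSMUSG00000048583) on chromosome 7 from 142204503 to 142220553, runs on the minus strand. Of the 6162 exonic bases annotated for Igf2, 3599 (58.4%) are also exonic in the same-strand gene Gm49394, which had 0 counts in every library used, so the Igf2 counts are uncertain. Mir483 and the antisense Igf2os also overlap Igf2. Igfals (ENSMUSG00000046070) on chromosome 17 from 25084971 to 25100984 overlaps no annotated gene. Igfbp1 (ENSMUSG00000020429) on chromosome 11 from 7147782 to 7152546 and Igfbp3 (ENSMUSG00000020427) on chromosome 11 from 7156086 to 7163923 lie end to end, 3539 bases apart, on opposite strands. Igfbp2 (ENSMUSG00000039323) on chromosome 1 from 72863662 to 72891633 and Igfbp5 (ENSMUSG00000026185) on chromosome 1 from 72897091 to 72914043 form the second such pair, 5457 bases apart and also on opposite strands. Igfbp4 (ENSMUSG00000017493) on chromosome 11 from 98932070 to 98945218 stands apart from both pairs.

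Per length, the Igf1 message of AL males was highest in liver. Mean Igf1 was 91.2 ± 11.2 RPKM (SD, n = 8) in liver, 1.77 ± 0.347 in muscle and 0.800 ± 0.199 (n = 7) in cortex. In AL male liver the order was Igfbp4 at 151 ± 25.8 RPKM, Igfbp2 at 123 ± 25.03 and Igf1, followed by Igfals at 33.03 ± 8.96. Neighbours from Igfbp4 to Igf1 had overlapping ranges of mean ± SD, the measure of spread used for these orders. Igfbp1 at 6.60 ± 5.17 RPKM and Igfbp3 at 6.12 ± 1.90 came next and did not differ beyond their spread, Igfbp5 stood at 1.16 ± 0.455 and Igf2 at 0. In muscle the order was different, with Igfbp5 first at 70.04 ± 14.6 RPKM, Igfbp4 at 14.2 ± 2.15 and Igfbp3 at 4.38 ± 0.598. Igfals at 1.79 ± 0.335 RPKM and Igf1 lay within their spread in muscle, Igfbp2 stood at 0.0641 ± 0.0907 and Igf2 at 0.0234 ± 0.0201 within their spread, and Igfbp1 had 0 counts in all 32 muscle libraries. In cortex Igfbp2 at 33.8 ± 11.5 RPKM and Igfbp4 at 29.7 ± 3.56 led and lay within their spread, with Igfbp5 at 15.9 ± 3.92 and Igfbp3 at 3.27 ± 0.649. Igf1 was lower there, and Igf2 at 0.0695 ± 0.0512, Igfals at 0.0575 ± 0.0367 and Igfbp1 at 0.0344 ± 0.0394 RPKM came last, each within the spread of the next. The same genes led in females. In AL female liver, Igfbp4 stood at 288 ± 64.6 RPKM, Igfbp2 at 233 ± 99.6, Igf1 at 142 ± 12.4 and Igfals at 61.1 ± 13.1. Igfbp5 again led in AL female muscle at 56.1 ± 23.7 RPKM, and Igfbp4 at 38.3 ± 4.06 and Igfbp2 at 35.97 ± 8.68 led in AL female cortex within their spread.

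**Figure D1:**
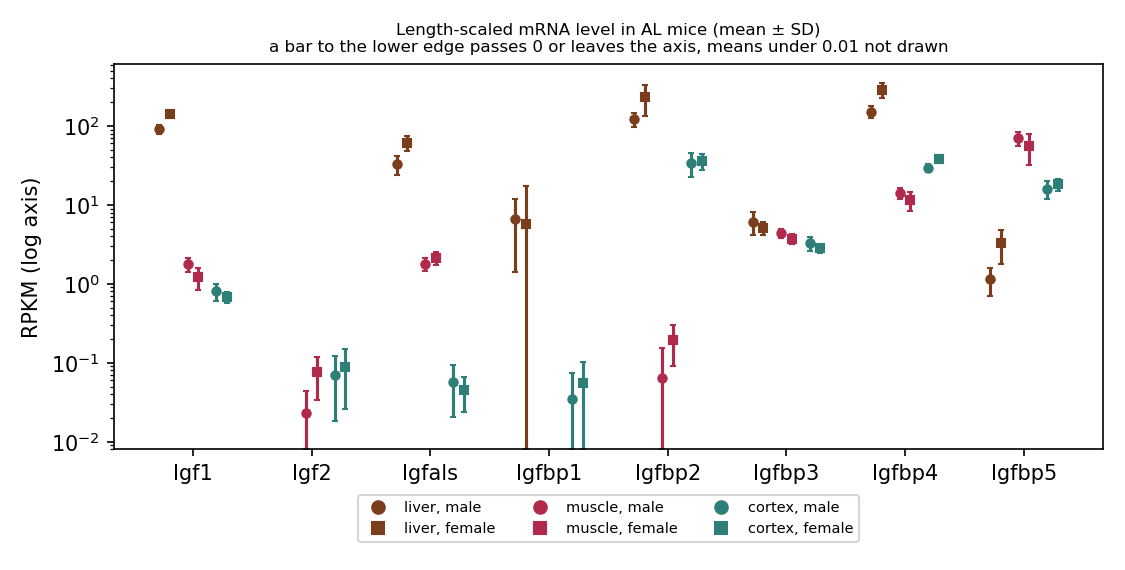
Mean RPKM of the 8 genes in AL mice by tissue and sex on a log axis, with SD bars over 8 mice a group (7 in male cortex). Igf1 and Igfals are highest in liver, and Igfbp5 is highest in muscle.

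The tissue differences in AL mice were tested on counts with edgeR's quasi-likelihood (QL) test, with p-values adjusted by Benjamini-Hochberg over all genes tested and a threshold of 0.05. In males, 6 of the 7 members tested passed between liver and muscle (background 79.2% of genes), 7 of 7 between liver and cortex (83.4%) and 5 of 7 between muscle and cortex (80.2%). In females the counts were 7 of 8 (79.1%), 8 of 8 (84%) and 6 of 8 (80.5%). These shares are close to those of all genes, so the count says nothing particular about the members. Igf1 was higher in liver than in muscle by 5.48 on the log2 scale in males (adjusted p = 7.62e-17) and by 6.66 in females (adjusted p = 3.31e-17). All 8 liver libraries of each sex lay above all 8 muscle libraries for Igf1. Igfals, which encodes the acid-labile subunit, was also higher in liver than in muscle, by 3.95 in males and 4.57 in females. Igfbp5 went the other way, with a liver-minus-muscle log2 fold change of -6.22 in males (adjusted p = 4.02e-15) and -4.38 in females (adjusted p = 2.57e-11). Igfbp3 did not pass between liver and muscle in either sex (0.23 in males, adjusted p = 0.0938, and 0.20 in females, adjusted p = 0.154). Igf1 was also higher in muscle than in cortex, by 2.20 in males and 1.69 in females. Igf2 had 0 counts in all 32 liver libraries, against 0 to 0.896 CPM in muscle and 0.031 to 1.31 CPM in cortex, so the mature liver showed no Igf2 at this depth.

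The comparison of IF with AL liver asks how the hepatic supply of IGF-1 and its carriers differs under the fasting regimen. In AL males, liver Igf1 was 752 CPM in the lowest library, 883 at the median and 1082 in the highest. In IF males it was 672, 863 and 954 CPM on the same measures. The groups overlapped, with 3 of 8 IF libraries below all AL libraries and none above them. The edgeR log2 fold change for Igf1 was -0.22 (standard error 0.12, adjusted p = 0.151) and did not pass. Igfals ranged from 60.9 to 146 CPM in AL males and 76.3 to 131 in IF males. Its log2 fold change was -0.011 (standard error 0.16, adjusted p = 0.962), with each IF library inside the AL range. Neither the ligand nor the acid-labile subunit was called in male liver.

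Of the 7 members tested in male liver, 3 passed and all 3 were higher in IF, namely Igfbp1, Igfbp2 and Igfbp4. The background in this comparison is 7234 of 16204 genes called, 44.6% in either direction, and 3815 of 16204 called higher in IF, 23.5%. The share of members called is near that of all genes in either direction. All 3 were higher in IF, a larger share than the 23.5% of all genes called higher. That difference was not tested, and the count alone is not read as a result about the members. The median log2 fold change of the 7 members was 0.37, against 0.06 for all genes tested. Igfbp1, whose product binds IGF-1 with high affinity and turns over quickly in blood, was 1.25 CPM in the lowest library, 8.74 at the median and 25.98 in the highest in AL males. In IF males it was 40.2, 91.6 and 173 CPM. All 8 IF libraries lay above all 8 AL libraries, and AL levels themselves spread widely. The mean was 10.1 times as high in IF, at a log2 fold change of 3.23 (standard error 0.51, edgeR adjusted p = 0.000121). Igfbp2, a major binding protein of liver and serum, was 173 CPM in the lowest library, 225 at the median and 308 in the highest in AL males and 586, 745 and 1218 CPM in IF males. Again all 8 IF libraries lay above all 8 AL libraries. Such separation was described for members only and was not counted over all genes. In this comparison 2388 of 16204 genes were called at 2-fold or more, so it is not read as particular to these members. The mean was 3.73 times as high in IF (log2 fold change 1.81, standard error 0.18, edgeR adjusted p = 2.38e-08). Igfbp4, which is generally inhibitory to IGF action, was 552 CPM in the lowest library, 647 at the median and 876 in the highest in AL males and 766, 1054 and 1222 CPM in IF males. The groups overlapped, and 6 of 8 IF libraries lay above all AL libraries. Its mean was 1.52 times as high in IF (log2 fold change 0.51, standard error 0.14, edgeR adjusted p = 0.00464). Igfbp3, a carrier in the ternary complex, ranged from 13.7 to 32.6 CPM in AL and 15.5 to 34.5 in IF males and was not called (log2 fold change 0.17, adjusted p = 0.436). Igfbp5 was also not called in male liver (0.37, adjusted p = 0.271), at 1.88 to 10.5 CPM in AL and 5.91 to 16.5 in IF.

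**Figure D2:**
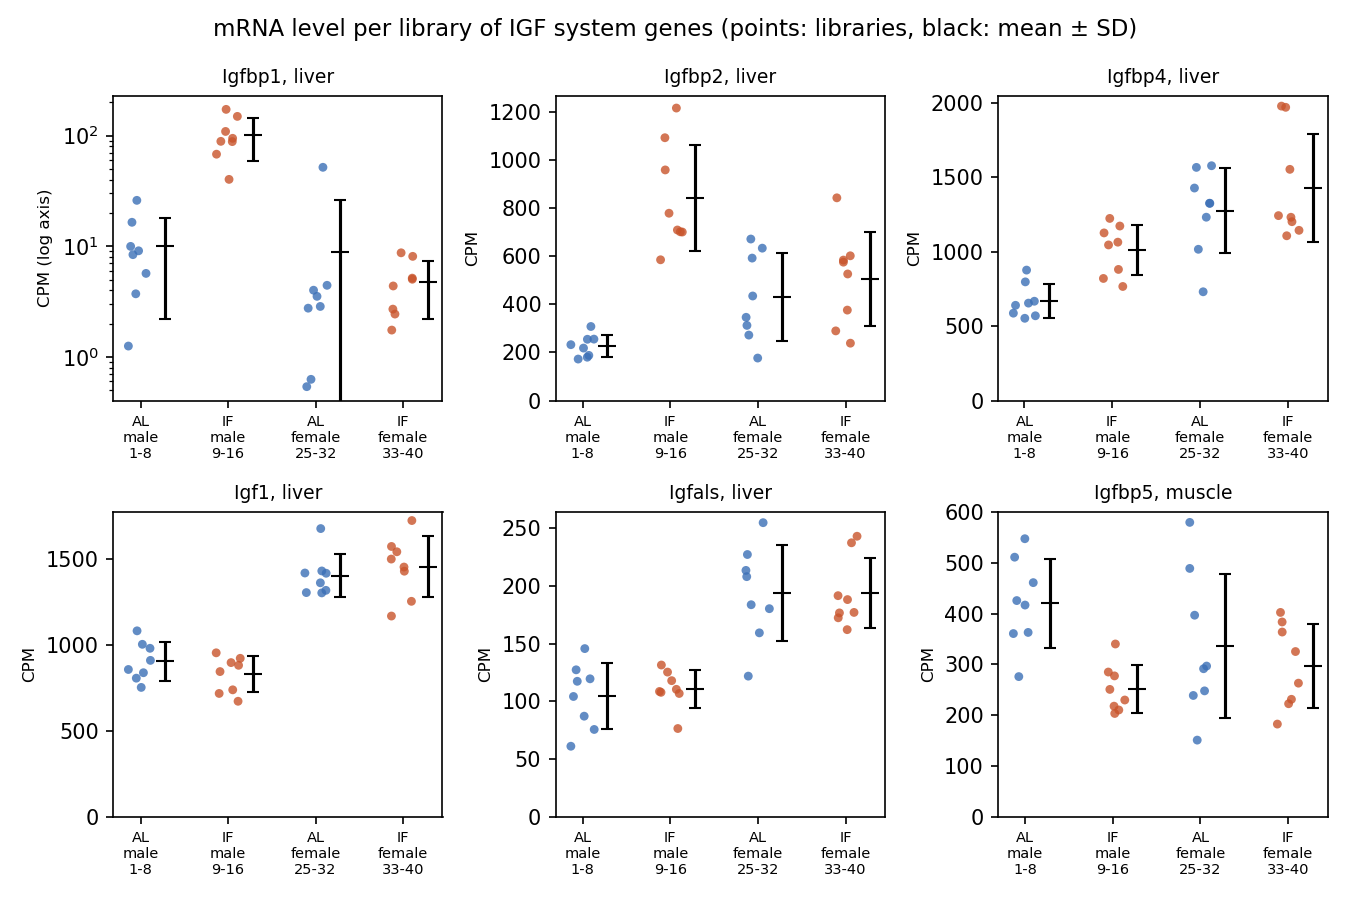
CPM in each library for Igfbp1 (log axis), Igfbp2, Igfbp4, Igf1 and Igfals in liver and Igfbp5 in muscle, by sex and diet, with the mean and SD over 8 mice in black (the lower SD bar of Igfbp1 in AL females runs off the log axis). In males, Igfbp1 and Igfbp2 in liver do not overlap between AL and IF, and in females all panels overlap.

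Summed per length, the binding protein message of male liver differed between diets while that of the ligand was not called. The sum of Igfbp1 to Igfbp5 was 288 ± 45.4 RPKM (SD, n = 8) in AL and 761 ± 156 in IF males. Igf1 in RPKM divided by that sum was 0.324 ± 0.0596 in AL and 0.112 ± 0.0189 in IF, and the 2 groups of libraries did not overlap. Within the sum, Igfbp4 made up 52.6 ± 3.13% in AL and 30.3 ± 2.73% in IF, Igfbp2 42.5 ± 4.12% and 59.6 ± 4.61%. The share of Igfbp1 was 2.37 ± 1.995% in AL and 8.90 ± 3.23% in IF. In the IF order Igfbp2 came first at 457 ± 120.2 RPKM, and Igfbp1 at 66.4 ± 27.9 stood at rank 4, within the spread of its neighbours Igf1 and Igfals. These sums and ratios are descriptions of RNA and carry no test.

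Related genes, taken as 5 lists, were read beside the members in the same test, where 44.6% of all genes were called and 23.5% were called higher in IF. All 9 listed FoxO factors and fasting-responsive liver genes were higher in IF male liver (median log2 fold change 0.79, against 0.06 for all genes tested). The largest, with standard errors, were Foxo1 1.57 ± 0.12, Cebpb 1.56 ± 0.18, Pck1 1.44 ± 0.20 and Fgf21 0.99 ± 0.37. FoxO1 is the transcription factor that insulin signalling keeps out of the nucleus, and Pck1 encodes a gluconeogenic enzyme. Among 8 genes of receptors and proximal signalling, 2 were higher and 3 lower, the largest being Igf1r (0.81 ± 0.27, adjusted p = 0.0166), Grb10 (0.72 ± 0.22, adjusted p = 0.0105), Shc1 (-0.67 ± 0.12, adjusted p = 8.01e-05) and Grb14 (-0.45 ± 0.14, adjusted p = 0.0106). Igf1r encodes the IGF-1 receptor, and Grb10 and Grb14 encode adaptors that dampen it and the insulin receptor. Of 8 genes of the growth hormone axis, 0 were higher and 2 lower, Stat5a (-0.65 ± 0.15, adjusted p = 0.00144) and the growth hormone receptor Ghr (-0.49 ± 0.12, adjusted p = 0.00153). Among 4 other binding proteins, proteases and inhibitors tested, 1 was higher, Igfbp6 (1.79 ± 0.34, adjusted p = 0.000146), and 0 lower. Among 3 ligand relatives and neighbours tested, 0 were higher and 1 lower, Igf2bp2 (-0.98 ± 0.40, adjusted p = 0.048).

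Markers of other cell types were read in the same male liver test, where 44.6% of all genes were called and 23.5% were called higher in IF. Beside those shares, the counts below are not read as changes in a cell type. Of 5 erythroid markers, 3 were higher in IF, the largest being Hbb-bs 3.17 ± 0.52, with summed levels of 362 to 956 CPM in AL and 667 to 6879 in IF libraries and Hba-a1 the most abundant. Of 5 endothelial markers, 3 were higher, with sums of 120.2 to 165 CPM in AL and 184 to 373 in IF and Stab2 the most abundant. Fibroblast and stellate markers were higher in IF for 2 of 6, with sums of 88.6 to 151 and 126 to 207 CPM and Dcn the most abundant. Macrophage markers were higher in IF for 2 of 5, with sums of 126 to 219 and 171 to 489.9 CPM and Clec4f the most abundant. Leptomeningeal and perivascular fibroblast markers were higher for 3 of 6 (median 1.07 over the 6), Lum 1.44 ± 0.26, Ogn 0.95 ± 0.28 and Aldh1a2 2.11 ± 0.72, with sums over 7 of 197 to 343 CPM in AL and 218 to 338 in IF and Slc6a13 the most abundant. Slc6a13 carried these sums, with a mean of 271 CPM against 276 for the list in AL and 259 against 270 in IF. The sums therefore say little of the other markers. No marker of these lists was at 0 in a whole group of male liver. The 1 adipocyte marker of 4 that was tested, Cfd -4.70 ± 0.30, was lower in IF, with sums over the list of 11.4 to 32.2 CPM in AL and 0.546 to 1.88 in IF, Cfd the most abundant and Lep at 0 in IF. Cfd carried the AL sums, with a mean of 21.41 CPM against 21.44 for the list. They therefore say little of the other adipocyte markers. Hepatocyte markers were split, with 1 of 5 higher and 1 lower, at sums of 50162 to 75831 and 44974 to 69000.1 CPM and Alb the most abundant. Astrocyte markers had 2 of 3 higher and 1 lower. Their sums over 4 did not overlap, at 731 to 970 CPM in AL and 1070 to 1505 in IF. Aldh1l1 made up most of them, with a mean of 748 CPM against 850 for the list in AL and 991 against 1249 in IF. They are not read as astrocytes in liver. Of 2 neuron markers 1 was higher, and Slc17a7 of that list was at 0 in AL. Of 2 oligodendrocyte markers 1 was higher and 1 lower. The part of these cell types in the Igfbp1, Igfbp2 and Igfbp4 results was not tested.

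In female liver, 0 of the 7 members tested passed, and edgeR called 0 of 15938 genes (0%). At an unadjusted p under 0.05 there were 919 genes, and DESeq2 called 4. Igf1 in AL females was 1303 CPM in the lowest library, 1389.5 at the median and 1678 in the highest, and in IF females 1168, 1477 and 1725 CPM. The groups overlapped, and the log2 fold change was 0.092 (standard error 0.11, adjusted p = 0.920). Igfals ranged from 122 to 255 CPM in AL and 162 to 243 in IF females (0.045, adjusted p = 0.974). Igfbp1 was 0.537 CPM in the lowest library, 3.19 at the median and 51.7 in the highest in AL females and 1.74, 4.70 and 8.72 CPM in IF females. The highest AL value came from mouse 29, and every other AL female stood at or below 4.43 CPM. With mouse 29 the log2 fold change of Igfbp1 was -0.84 (standard error 0.81, adjusted p = 0.896), and without it 0.88 (adjusted p = 0.872), so its direction rests on that library. Igfbp2 was 177 CPM in the lowest library, 391 at the median and 673 in the highest in AL females and 239, 552 and 844 CPM in IF females, with 1 IF library above all AL libraries. Its log2 fold change was 0.27 (standard error 0.28, adjusted p = 0.902). Igfbp4 was 730.0, 1324 and 1576 CPM in AL females and 1106, 1236 and 1976 CPM in IF females, in the same order of lowest, median and highest (0.21, adjusted p = 0.885). Igfbp3 (0.26) and Igfbp5 (-0.28) were not called either. The sum of Igfbp1 to Igfbp5 in female liver was 536 ± 153 RPKM in AL and 608 ± 161 in IF, and Igf1 divided by it was 0.292 ± 0.115 and 0.265 ± 0.102. None of the genes on the 5 related lists passed in female liver, muscle or cortex.

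Whether the diet effect differed between the cohorts was tested as an interaction, coded as the female effect minus the male effect. In liver 2 of 7 members passed and both were negative (background 23.7%). The interaction for Igfbp1 was -4.04 (standard error 0.97, adjusted p = 0.00287), and without mouse 29 it was -2.33 (adjusted p = 0.0136). For Igfbp2 it was -1.51 (standard error 0.35, adjusted p = 0.00156). The diet effect on both was thus more positive in the males, where all 8 IF libraries stood above all AL libraries, than in the females, where the groups overlapped. Igfbp4 was called in males only, but its interaction of -0.27 did not pass (adjusted p = 0.448), so its effect is not shown to differ. Igf1 did not pass either (0.34, adjusted p = 0.112). Among the related lists, 6 of 9 FoxO and fasting-responsive genes had a negative interaction in liver and 0 a positive one (median -0.75). The other lists went differently, with 2 of 4 ligand relatives and neighbours positive, Igf2bp1 4.42 ± 1.498 and Igf2bp2 1.45 ± 0.49, 2 of 9 receptor and proximal signalling genes positive, Shc1 0.64 ± 0.15 and Insr 0.35 ± 0.13, 1 of 8 genes of the growth hormone axis negative, Socs3 -0.92 ± 0.34, and 0 of 5 other binding proteins, proteases and inhibitors passing. Of 5 endothelial markers, 3 had a negative interaction too (median -0.70 over the 5), with sums of 116 to 175 CPM in AL and 73.95 to 145 in IF females beside 120.2 to 165 and 184 to 373 in males, and Stab2 the most abundant. So did 2 of 5 erythroid markers (median -1.60), with sums of 115 to 1113 CPM in AL and 261 to 1031 in IF females beside 362 to 956 and 667 to 6879 in males, and Hba-a1 the most abundant, and 1 of 6 fibroblast and stellate markers, Dcn -0.72 ± 0.26, at sums of 105 to 210.1 and 94.8 to 227 CPM in females and 88.6 to 151 and 126 to 207 in males. Hepatocyte markers were split, Apoa1 0.83 ± 0.23 and Cyp2e1 -1.51 ± 0.30 passing of 5, at sums of 43694 to 80779 CPM in AL and 59205 to 99702 in IF females beside 50162 to 75831 and 44974 to 69000.1 in males, and Alb the most abundant. None of these markers was at 0 in a whole group. Of 4 astrocyte markers 1 was negative too, as was 1 of 2 neuron markers, and of 2 oligodendrocyte markers 1 was positive and 1 negative. The part of these cell types in the Igfbp1 and Igfbp2 interactions was not tested.

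Under AL feeding, 5 of 7 members were higher in female than in male liver and 0 lower, against 20% of genes called in either direction and 10.4% called higher in females. Igf1 was 0.48 higher on the log2 scale (standard error 0.11, adjusted p = 0.0015), and all 8 AL females, at 1303 to 1678 CPM, lay above all 8 AL males, at 752 to 1082 CPM. Igfals was 0.73 higher (standard error 0.15, adjusted p = 0.000484), at 122 to 255 CPM against 60.9 to 146 in males, with some overlap. So both genes of the circulating complex that liver expresses strongly had higher levels in the female cohort. Igfbp4 was 0.78 higher (adjusted p = 0.000659), Igfbp2 0.77 (adjusted p = 0.0252) and Igfbp5 1.36 (adjusted p = 0.009), each with overlapping ranges. Igfbp1 (-0.34, adjusted p = 0.785) and Igfbp3 did not pass. Without AL female mouse 29, Igfbp1 was called lower in females (-2.07, adjusted p = 0.00458) and Igfbp2 was no longer called (0.64, adjusted p = 0.0725), so these calls rest on that library. Of the related lists, 5 of 9 FoxO and fasting-responsive genes were higher in AL female liver and 1 lower (median 0.48), the largest being G6pc -1.37 ± 0.38 and Ppargc1a 1.34 ± 0.22. That G6pc value includes mouse 29, at 319 CPM, while every other AL female stood at or below 86.9 CPM. Among 9 receptor and proximal signalling genes 1 was higher, Irs2 0.66 ± 0.23, and 1 lower, Grb14 -0.41 ± 0.13, the growth hormone axis had 1 of 8 higher, Socs2 1.70 ± 0.47, the ligand relatives and neighbours 1 of 4 lower, Igf2bp1 -3.58 ± 1.12, and the other binding proteins, proteases and inhibitors 0 of 5 past the threshold. Of 5 macrophage markers, 3 were also higher in AL female liver (median 0.96 over the 5), with sums of 223 to 698 CPM against 126 to 219 in AL males and Clec4f the most abundant. The 1 adipocyte marker tested, Cfd -4.79 ± 0.81, was lower, with sums over the 4 listed of 0 to 10.2 against 11.4 to 32.2 CPM and Cfd the most abundant. Cfd carried the AL male sums, as given with the male liver result. The sum of 10.2 CPM came from mouse 31, also the highest AL female for liver Igf1. Every other AL female stood at or below 0.521 CPM. Of 5 erythroid markers 1 was lower, Alas2 -2.74 ± 0.29, with sums of 115 to 1113 against 362 to 956 CPM and Hba-a1 the most abundant. Of 6 leptomeningeal and perivascular fibroblast markers 1 was higher, Ranbp3l 1.75 ± 0.46, with sums over 7 of 214 to 324 against 197 to 343 CPM and Slc6a13 the most abundant. Slc6a13 carried the sum in AL females too, with a mean of 246 CPM against 252 for the list. None of these markers was at 0 in all libraries of either group. Of 2 neuron markers 1 was higher, and of 4 astrocyte markers 1 was higher and 1 lower. The part of these cell types in the differences of the 5 members was not tested.

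**Figure D3:**
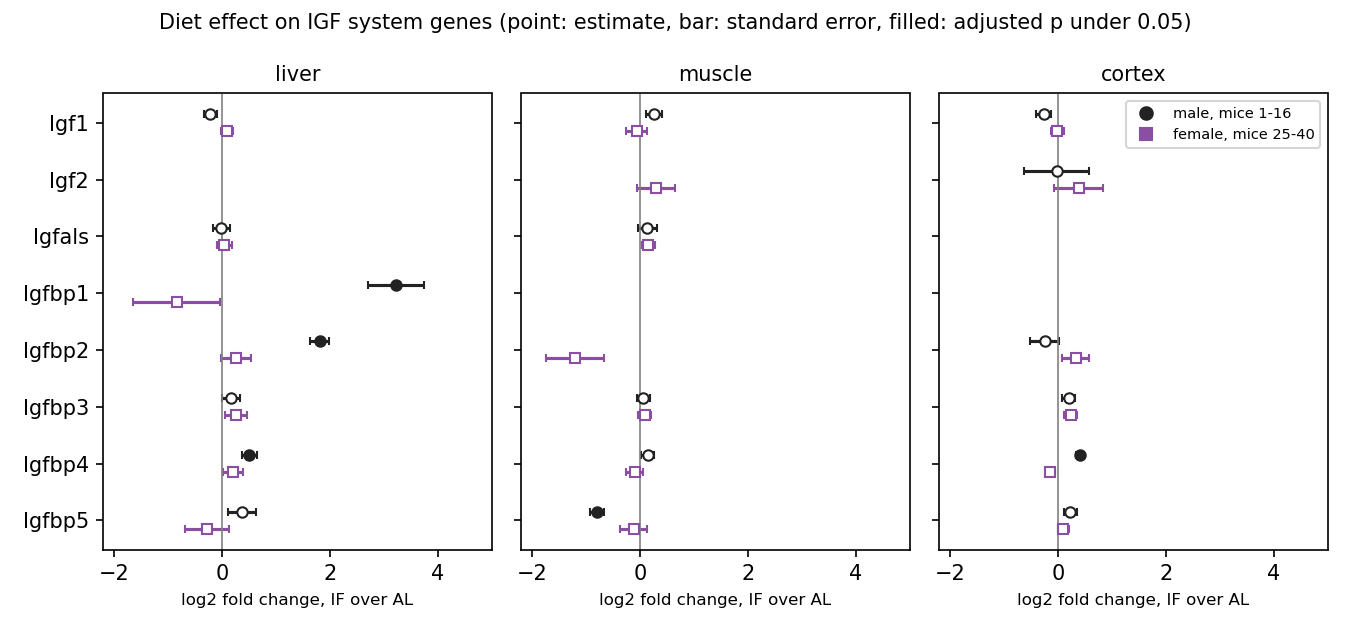
Log2 fold change of IF over AL for each gene tested, by tissue, with bars of 1 standard error from edgeR; black circles are males, purple squares females, and filled symbols have an adjusted p under 0.05. Filled symbols are Igfbp1, Igfbp2 and Igfbp4 in liver, Igfbp5 in muscle and Igfbp4 in cortex, all in males.

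The same comparison in skeletal muscle asks whether locally made ligand and binding proteins differ with the regimen. In males 5 of the 8 members passed the filter on low counts, and 1 was called and lower in IF, Igfbp5, against 23% of genes called (3463 of 15025) and 11.6% called lower in IF (1737 of 15025). Igfbp5, the most abundant binding protein message of muscle per length, was 276 CPM in the lowest library, 422 at the median and 548 in the highest in AL males and 203, 240.4 and 340.5 CPM in IF males. The groups overlapped, with 5 of 8 IF libraries below all AL libraries and all 8 AL libraries above the IF median. Its mean in IF was 0.599 times that in AL (log2 fold change -0.80, standard error 0.13, edgeR adjusted p = 0.000267). Muscle Igf1, the local ligand, was 12.8 CPM in the lowest library, 17.7 at the median and 23.6 in the highest in AL males and 15.3, 20.2 and 32.5 CPM in IF males. It was not called (log2 fold change 0.26, standard error 0.14, adjusted p = 0.213), and 3 IF libraries lay above all AL libraries. Igfals (0.14), Igfbp3 (0.062) and Igfbp4 (0.14) were not called, with ranges that overlapped between diets. Igf2 and Igfbp2 did not pass the low-count filter of the main test in male muscle, at 0 to 0.343 CPM and 0 to 0.414 CPM in AL, and Igfbp1 was at 0, which allows up to 0.103 CPM in AL and 0.106 in IF. With DESeq2, without the filter or in the 4-group fit, 7 members were tested and 1 was called, Igfbp5. Igfbp5 made up 78.5 ± 4.01% of the summed Igfbp1 to Igfbp5 RPKM in AL males and 66.01 ± 5.24% in IF males, as the sum went from 88.7 ± 15.03 to 63.3 ± 8.23 RPKM.

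Of the related lists in male muscle, 3 of 8 receptor and proximal signalling genes were higher and 3 lower, the largest being Irs2 (0.69 ± 0.17, adjusted p = 0.00884), Igf1r (0.43 ± 0.092, adjusted p = 0.00167), Grb14 (-0.35 ± 0.11, adjusted p = 0.0271) and Shc1 (-0.25 ± 0.084, adjusted p = 0.0349). The growth hormone axis had 1 of 8 higher, Jak2 (0.36 ± 0.12, adjusted p = 0.033), and 2 lower, Socs1 (-2.74 ± 0.63, adjusted p = 0.00598) and Socs3 (-1.21 ± 0.29, adjusted p = 0.00553), both feedback inhibitors of cytokine signalling. Among 5 other binding proteins, proteases and inhibitors, 2 were lower, Igfbp6 (-0.55 ± 0.14, adjusted p = 0.00826) and Igfbp7 (-0.40 ± 0.091, adjusted p = 0.00309), and 0 higher. Among 4 ligand relatives and neighbours, 2 were lower, Igf2bp2 (-1.01 ± 0.29, adjusted p = 0.015) and H19 (-0.66 ± 0.20, adjusted p = 0.0261), and 0 higher. Of 6 FoxO and fasting-responsive genes, 5 were higher and 1 lower, the largest being Pck1 4.45 ± 0.78, Foxo1 0.87 ± 0.21, Cebpb 0.76 ± 0.12 and Ppargc1a 0.70 ± 0.12. Over all genes of this comparison 23% were called and 11.6% were called lower.

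In the same male muscle libraries, adipocyte markers were higher in IF for 3 of 4, with sums of 26.7 to 298 CPM in AL and 96.9 to 1598 in IF libraries and Cfd the most abundant. Fibroblast and stellate markers were lower for 2 of 5, Col1a1 -0.58 ± 0.17 and Col3a1 -0.44 ± 0.13, with sums of 274 to 413 CPM in AL and 192 to 384 in IF and Dcn the most abundant. Muscle fibre markers were lower for 2 of 5, with sums of 129105 to 138436 and 113459 to 149876 CPM and Acta1 the most abundant, and neither of 2 satellite cell markers passed. Of 4 macrophage markers 1 was lower, Csf1r -0.44 ± 0.15 (median -0.40 over the 4), with sums over 5 of 23.5 to 55.7 and 21.1 to 50.5 CPM and C1qa the most abundant. Endothelial markers were split, Stab2 0.41 ± 0.081 and Kdr -0.54 ± 0.17 passing of 4, with sums over 5 of 126 to 170.1 and 134 to 199 CPM and Cdh5 the most abundant. Of the hepatocyte list Cyp2e1 4.02 ± 0.50 was higher, 1 of 2 tested, with sums over 5 of 1.57 to 11.9 and 35.1 to 209.9 CPM. Cyp2e1 carried those sums, with a mean of 95.4 CPM against 96.7 for the list in IF. Of the IF males, mouse 12 was highest and mouse 11 lowest in both this sum and the adipocyte sum. The sum is not read as hepatocytes in muscle. Of these lists only Clec4f, a macrophage marker, was at 0 in a whole group of male muscle, the IF males. Astrocyte markers were higher for 1 of 2, with sums over 4 of 14.1 to 21.6 CPM in AL and 16.4 to 29.5 in IF and Aqp4 the most abundant. Beside the 23% of all genes called in this comparison, these counts are not read as changes in a cell type. The part of these cell types in the Igfbp5 result was not tested.

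In female muscle 0 of the 7 members tested passed, against 1 of 15308 genes called by edgeR (0.00653%), 1644 at an unadjusted p under 0.05 and 82 by DESeq2. Igfbp5 was 151 CPM in the lowest library, 294 at the median and 580.4 in the highest in AL females and 182, 294 and 403 CPM in IF females. The IF range lay inside the AL range, and the log2 fold change was -0.12 (standard error 0.25, adjusted p = 0.895). Igfbp2, near the floor in muscle at 0 to 0.643 CPM in AL and 0 to 0.309 in IF females, had the largest size of change, -1.20 (standard error 0.53), and did not pass (adjusted p = 0.438). The interaction of diet and cohort passed for 0 of 7 members in muscle, against 14.2% of genes called by edgeR. At an unadjusted p under 0.05 it held for 1 of them, Igfbp5, and DESeq2 called 0. For Igfbp5 it was 0.70 (standard error 0.30, adjusted p = 0.116), so the fall in males is not shown to differ from the female effect. In that interaction 1 of 6 FoxO and fasting-responsive genes was positive and 3 negative, 1 of 8 receptor and proximal signalling genes positive and 2 negative, 2 of 8 of the growth hormone axis and 2 of 5 other binding proteins, proteases and inhibitors positive, and 0 of 4 ligand relatives and neighbours passed. Between the AL cohorts, 4 of 7 members passed in muscle (background 38.4%). Igf1 was lower in females (-0.69, standard error 0.18, adjusted p = 0.00226), at 7.53 to 16.6 CPM against 12.8 to 23.6 in males, the opposite sign to liver, a contrast between tissues that was not tested. Igfbp3 (-0.36, adjusted p = 0.0237) and Igfbp4 (-0.45, adjusted p = 0.0137) were also lower in females. Igf2 was higher in females (1.58, adjusted p = 0.023), at 0.116 to 0.896 CPM against 0 to 0.343, all levels below 1 CPM. Of the related lists, 3 of 8 receptor and proximal signalling genes were higher in AL female muscle and 0 lower, 3 of 8 genes of the growth hormone axis higher and 2 lower, 1 of 5 other binding proteins, proteases and inhibitors higher and 1 lower, 1 of 4 ligand relatives and neighbours higher and 1 lower, and 1 of 6 FoxO and fasting-responsive genes higher and 0 lower. Of 5 muscle fibre markers, 3 were lower in AL females (median -0.26 over the 5), with sums of 110345 to 148699 CPM against 129105 to 138436 in AL males and Acta1 the most abundant. Erythroid markers were lower for 3 of 5, with sums of 57.9 to 396 against 189.96 to 869 CPM and Hbb-bs the most abundant. Macrophage markers were lower for 2 of 4, with sums over 5 of 13.6 to 34.7 against 23.5 to 55.7 CPM, C1qa the most abundant and Clec4f at 0 in AL females. The 1 endothelial marker of 4 that passed, Stab2 -2.08 ± 0.13, was lower, with sums over 5 of 99.9 to 176 against 126 to 170.1 CPM and Cdh5 the most abundant. Leptomeningeal and perivascular fibroblast markers had 1 of 7 higher, Lum 0.68 ± 0.15, and 2 lower, Aldh1a2 -1.37 ± 0.48 and Slc6a13 -0.96 ± 0.34, with sums of 38.4 to 61.2 against 26.7 to 47.9 CPM, and Lum the most abundant in females and Ogn in males. Astrocyte markers were higher for 2 of 3 (median 0.58), with sums over 4 of 17.95 to 45.6 against 14.1 to 21.6 CPM and Aqp4 the most abundant. Of 2 genes of the hepatocyte list 1 was higher, with sums over 5 of 7.44 to 31.7 against 1.57 to 11.9 CPM. Cyp2e1 carried them in AL females, with a mean of 15.7 CPM against 15.9 for the list, and they are not read as hepatocytes. Of 2 neuron markers 1 was lower, as was the 1 gene of the interneuron list tested, Pvalb (-0.46), at a mean of 13943 against 17504 CPM. Pvalb made up that list's sum in muscle, far above the mean list sum of 650 CPM in AL female cortex. It is therefore not read as interneurons in muscle. The part of these cell types in the differences of the 4 members was not tested.

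In cortex the comparison asks the same of brain, where IGF-1 from blood and local IGF-1 act on neurons and glia. Of 6 members tested in males, 1 was called, Igfbp4, and it was higher in IF, against 7.21% of genes called (1332 of 18462) and 3.79% called higher in IF. Igfbp4 was 111 CPM in the lowest library, 131 at the median and 154 in the highest in the 7 AL males and 152, 171 and 191 CPM in the 8 IF males. The groups overlapped slightly, with 7 of 8 IF libraries above all AL libraries. Its mean was 1.31 times as high in IF (log2 fold change 0.41, standard error 0.068, edgeR adjusted p = 0.00273), and with the library of AL mouse 1 kept it was 0.34 (adjusted p = 0.0371). Cortical Igf1 was 6.20 CPM in the lowest library, 7.05 at the median and 11.2 in the highest in AL males and 4.65, 6.59 and 8.91 CPM in IF males, with 3 of 8 IF libraries below all AL libraries. It was not called (-0.27, standard error 0.15, adjusted p = 0.278). Igfbp2 (-0.24, adjusted p = 0.631), Igfbp3 (0.20) and Igfbp5 (0.23, adjusted p = 0.274) were not called. Igf2, at 0.0309 to 0.803 CPM in AL and 0.0595 to 0.993 in IF males, showed no difference beyond its standard error (-0.025 ± 0.61). Igfals and Igfbp1 did not pass the low-count filter of the main test in cortex, with Igfbp1 at 0 to 5 counts in a library of the males. With DESeq2 or without the filter, all 8 members were tested in males and 1 was called, Igfbp4.

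Of the related lists in male cortex, 1 of 6 FoxO and fasting-responsive genes was higher, Foxo4 (0.26 ± 0.076, adjusted p = 0.0439), and no gene of the other 4 lists passed. Over all genes of this comparison 7.21% were called. Oligodendrocyte markers were higher in IF for 2 of 3, Mbp 0.59 ± 0.12 and Mog 0.53 ± 0.084, with sums of 3523 to 5514 CPM in AL and 4751 to 7892 in IF and Mbp the most abundant. Astrocyte markers had 1 of 4 lower, Aqp4 -0.51 ± 0.085, with sums of 1501 to 2026 and 1411 to 1839.7 CPM and Slc1a2 the most abundant. Choroid plexus and leptomeningeal markers, tissues in which Igfbp2 and Igf2 are known to be expressed, passed in 0 of 5 and 0 of 7 cases. The choroid plexus sum varied between single libraries from 1.66 to 66.3 CPM in AL and 2.91 to 113 in IF males, with Kl the most abundant in AL and Clic6 in IF. The leptomeningeal sum ran from 28.3 to 62.2 CPM in AL and 22.6 to 40.5 in IF, with Slc6a13 the most abundant. No marker of these lists was at 0 in a whole group, and the part of these cell types in the Igfbp4 result was not tested.

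In female cortex 0 of 6 members tested passed, against 2 of 18403 genes called by edgeR (0.0109%), 2069 at an unadjusted p under 0.05 and 64 by DESeq2. Igfbp4 was 131 CPM in the lowest library, 175 at the median and 188 in the highest in AL females and 126, 148 and 190.1 CPM in IF females. The groups overlapped, with 1 IF library above and 1 below all AL libraries, and the log2 fold change was -0.15 (standard error 0.091, adjusted p = 0.520). The interaction of diet and cohort passed for 1 of 6 members in cortex, Igfbp4 (-0.55, standard error 0.12, adjusted p = 0.0113), against 2.03% of genes. The difference is that between a rise in males and a slight, uncalled decrease in females. Of 3 oligodendrocyte markers, 2 had a negative interaction as well (median -0.73), with sums of 4527 to 7642 CPM in AL and 3961 to 6229.7 in IF females beside 3523 to 5514 and 4751 to 7892 in males, and Mbp the most abundant. Of 4 astrocyte markers 1 had a positive interaction, Aqp4 0.55 ± 0.14, with sums of 1768 to 2023 CPM in AL and 1549.8 to 2019 in IF females beside 1501 to 2026 and 1411 to 1839.7 in males, and Slc1a2 the most abundant. Of 3 interneuron markers 1 had a negative interaction, Pvalb -0.90 ± 0.23, with sums of 470.1 to 779 CPM in AL and 460.4 to 680.1 in IF females beside 454 to 656 and 445 to 635 in males, and Sst the most abundant. None of these markers was at 0 in a whole group, and the part of these cell types in the Igfbp4 interaction was not tested. Under AL feeding Igfbp4 was the 1 member of 6 that passed between the cohorts in cortex, higher in females (0.38, standard error 0.085, adjusted p = 0.00313, background 12.6%). The AL ranges overlapped, at 111 to 154 CPM in males and 131 to 188 in females, and the IF males stood at 152 to 191 CPM. In the same AL libraries 2 of 3 oligodendrocyte markers were higher in females (median 0.42), as were 1 of 4 astrocyte markers, Aldh1l1 0.28 ± 0.079, and 1 of 3 interneuron markers, Pvalb 0.85 ± 0.17, at the AL sums just given. Reln, which stands on the fibroblast and stellate list for liver but is made by neurons in cortex, was lower in females (-0.46 ± 0.12), and 0 of the other 4 markers of that list passed. What these cell types contribute to this Igfbp4 difference was not tested either. Of the related lists, 2 of 9 receptor and proximal signalling genes were lower in AL female cortex and 0 higher, 2 of 8 other binding proteins, proteases and inhibitors higher and 2 lower, 1 of 8 genes of the growth hormone axis higher and 1 lower, 1 of 6 FoxO and fasting-responsive genes higher and 0 lower, and 0 of 3 ligand relatives and neighbours passed, while 0 genes of the 5 lists passed in the cortex interaction of diet and cohort.

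The diet effect in liver was compared with that in muscle and in cortex as an interaction, with libraries of the 3 tissues taken as the same mouse where they carry the same number, coded as liver minus the other tissue. The numbers were held against the sex of each library only, and for mouse 1 they do not name the same animal in cortex, since its left-out cortex library held Xist and no Ddx3y while its liver and muscle libraries, which stayed in these fits, held 1947 and 1101 counts of Ddx3y and 0 of Xist. All 8 members entered each fit, but Igfbp1 has 0 counts in muscle and Igf2 0 in liver, so no interaction can be read for them there, and Igfbp1 in cortex was at 0 to 5 counts a library in AL and 0 to 4 in IF males, too low to measure a diet effect in cortex. In males 2 members passed between liver and muscle (background 31%), and between liver and cortex (26.7%) Igfbp2 passed and Igfbp1 did so with no measurable cortex effect, so these counts are not set against the background shares. Igfbp5 differed between liver and muscle by 1.17 (standard error 0.27, adjusted p = 0.000943), with a called decrease in muscle and no call in liver. Igf1 differed by -0.50 (standard error 0.18, adjusted p = 0.0355), with a negative, uncalled change in liver and a positive, uncalled change in muscle. That call for Igf1 was lost with DESeq2's size factors (adjusted p = 0.0594) and with DESeq2's own test (adjusted p = 0.0552). Between liver and cortex, Igfbp2 differed by 2.06 (standard error 0.38, adjusted p = 8.53e-05). The fit gave 3.39 for Igfbp1 (standard error 1.09, adjusted p = 0.0263), which carries its liver effect and is not read as a difference between the tissues. Igfbp4, called in both liver and cortex of males, was not shown to differ between them (0.038, standard error 0.17, adjusted p = 0.948). In females 0 members passed in either comparison. The backgrounds there were 1 of 21292 genes (0.0047%) between liver and muscle, with 1648 at an unadjusted p under 0.05 and 36 by DESeq2, and 0 of 21292 (0%) between liver and cortex, with 2037 and 56.

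The genes whose level pattern was most like a member's were ranked by Pearson's r over the 12 group means of log2 CPM, among 18375 genes that reached 1 CPM in a group. The 12 points share 3 tissues and the library preparation, so r is given as a description with no test. For Igf1 the closest were Galm (0.999) and Fmo4 (0.998), and for Igfals Aldh4a1 (0.997) and C3 (0.997). Among the binding proteins, Igfbp1 was closest to Dus1l (0.992) and Gm6520 (0.990), and Igfbp2 to Lrrc3 (0.997) and Bid (0.996). Igfbp3 was closest to Ushbp1 (0.961) and Rbpms (0.959). For Igfbp4 they were Gss (0.997) and Cd82 (0.995), and for Igfbp5 Gm38317 (0.996) and Tmem242 (0.996). Igf2 stayed below 1 CPM as a mean in every group and was not ranked.

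Markers of other cell types were read in the same male diet interactions, and their sums in male liver are those given with the male liver result unless printed here. Over all genes 31% were called between liver and muscle and 26.7% between liver and cortex. Between liver and muscle, 3 of 5 erythroid markers were positive (median 1.25), with sums of 189.96 to 869 CPM in AL and 247 to 577 in IF muscle and Hbb-bs the most abundant there. Of 7 leptomeningeal and perivascular fibroblast markers 3 were positive (median 1.004), with sums of 197 to 343 CPM in AL and 218 to 338 in IF liver, where Slc6a13 was the most abundant, and 26.7 to 47.9 CPM in AL and 22.2 to 46.9 in IF muscle, where Ogn was in AL and Lum in IF. Macrophage markers were positive for 2 of 5, fibroblast and stellate markers for 2 of 6 and endothelial markers for 1 of 5, while the adipocyte marker Cfd -7.70 ± 0.53 was negative, 1 of 4, at the muscle sums given with the male muscle result. Hepatocyte markers were negative for 2 of 5, Alb -1.74 ± 0.58 and Cyp2e1 -2.47 ± 0.50, with sums of 1.57 to 11.9 CPM in AL and 35.1 to 209.9 in IF muscle. Those muscle sums were carried by Cyp2e1 and are not read as hepatocytes. Astrocyte markers had 1 of 4 positive and 1 negative, oligodendrocyte markers 1 of 3 positive and 1 negative, and choroid plexus markers 1 of 5 negative. The part of these cell types in the Igfbp5 and Igf1 interactions was not tested. Between liver and cortex, erythroid markers were positive for 4 of 5 (median 1.52), with sums of 181 to 480.1 CPM in AL and 219.6 to 386 in IF cortex and Hbb-bs the most abundant there. Fibroblast and stellate markers were positive for 3 of 6, of which Reln is made by neurons in cortex, with sums of 70.2 to 114 CPM in AL and 54.8 to 79.7 in IF cortex and Reln the most abundant there. Endothelial markers were positive for 2 of 5, with sums of 41.2 to 53.5 CPM in AL and 31.8 to 44.3 in IF cortex and Pecam1 the most abundant there. Hepatocyte markers were positive for 1 of 5, Cyp2e1 2.65 ± 0.69 (median 0.92 over the 5), with sums of 5.30 to 3104 CPM in AL and 4.64 to 3368 in IF cortex and Ttr the most abundant there. Ttr carried those cortex sums, with a mean of 541 CPM against 543 for the list in AL and 624 against 626 in IF. The cortex libraries highest in that sum, AL mouse 4 and IF mouse 11, were also highest in the choroid plexus sum. Leptomeningeal and perivascular fibroblast markers were positive for 2 of 7 and macrophage markers for 1 of 5, with cortex macrophage sums of 155 to 208 CPM in AL and 152 to 185 in IF, Csf1r the most abundant and Clec4f at 0 in AL. Of 5 choroid plexus markers 1 was negative, Kcne2 -3.41 ± 1.23 (median -2.01 over the 5), with sums of 0.139 to 1.40 CPM in AL and 0.0871 to 0.661 in IF liver, where Kl was at 0 in IF, beside the cortex sums above. As above, the part of these cell types in the Igfbp2 interaction was not tested. Of the related lists, FoxO and fasting-responsive genes had 4 of 9 positive and 1 negative between liver and muscle (median 0.75) and 5 of 9 positive and 0 negative between liver and cortex (median 0.80). Receptor and proximal signalling genes had 1 of 9 positive and 2 negative in the first and 2 of 9 each way in the second, and the growth hormone axis 3 of 8 positive and 2 negative in the first and 1 of 8 each way in the second. Of 8 other binding proteins, proteases and inhibitors 1 was positive in each, Igfbp6 2.13 ± 0.32 and then Igfbp6 1.61 ± 0.32, and 0 of 4 ligand relatives and neighbours passed in either.

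Promoter sequences from RefSeq (build GRCm38.p6, 250 bases before to 50 after a transcription start) matched all 8 members, with 14 starts in all. They are shown for Igfbp1 and for the second start of Igfbp2, the 2 members whose liver levels did not overlap between AL and IF males. How many of all genes were so separated was not counted. Capitals mark the forkhead core TGTTT, or AAACA as its reverse complement, which FoxO factors can bind. The window of Igfbp1, chr11:7197537-7197836 on the plus strand, holds 2 such matches, which begin at -172 and -106 from the start. The window of the second Igfbp2 start, chr1:72825137-72825436 on the plus strand, also holds 2, at -49 and -16.
Igfbp1: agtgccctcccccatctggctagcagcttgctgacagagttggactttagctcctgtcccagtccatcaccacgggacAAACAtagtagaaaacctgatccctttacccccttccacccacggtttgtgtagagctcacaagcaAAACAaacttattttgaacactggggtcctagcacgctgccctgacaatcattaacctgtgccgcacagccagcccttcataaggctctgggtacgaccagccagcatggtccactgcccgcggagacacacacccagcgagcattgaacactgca
Igfbp2 second start: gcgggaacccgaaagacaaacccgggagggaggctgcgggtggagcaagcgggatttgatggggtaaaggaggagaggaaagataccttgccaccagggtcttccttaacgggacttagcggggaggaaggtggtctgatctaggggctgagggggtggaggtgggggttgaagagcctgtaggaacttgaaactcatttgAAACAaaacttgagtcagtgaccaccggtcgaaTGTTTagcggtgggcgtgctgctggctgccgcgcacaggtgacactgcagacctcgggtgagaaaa
The core is short, and 50.5% of the 32851 promoters in the table hold it on either strand, so a match is a description and no sign of binding. The first Igfbp2 start has no forkhead core, but holds the glucocorticoid receptor motif AGAACA (18.97% of promoters) at -206 and the E-box CACGTG (7.15%) at -142. The Igfbp4 window holds no forkhead core and has TATAAA (13.6%) at -28, and Igfbp5 has TGTTT at 28, past its start. Igf1 has AAACA at -181, and the core was also found at 3 of the 4 starts of Igf2 and at the second of 3 starts of Igfals. AGAACA was also found, as TGTTCT, at the first start of Igf2, at -85, and of Igfals, at -86. The longer forkhead motif GTAAACA (3.65%), which contains the core, was found among the members only at the second start of Igfals, as TGTTTAC at -242. The STAT5 motif TTCNNNGAA (8.30%) was found at the first and second starts of Igfals, at -236 and -58, and at no start of another member. The HNF1 motif, in the form searched, was held by only 3 of 32851 promoters (0.00913%) and matched no member. So rare a form would be missed at nearly any promoter, so this does not show that a member lacks an HNF1 site. The Igfbp3 window held none of the motifs searched.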

How the data were processed

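Poly-A RNA of liver, skeletal muscle and cerebral cortex was sequenced by the authors as directional (dUTP) libraries and aligned with HISAT2 to GRCm39. The deposited table gives raw gene counts made by the authors with featureCounts, and a deposited gene length in bases for each gene. The strand setting of the counting and the handling of reads with several alignments are not given in the sources used here.

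CPM was computed from the total counts of each library and RPKM from CPM and the deposited length. Counts were tested with edgeR 4.0.16 in R 4.3.3 (TMM scaling, filter on low counts with a minimum count of 10 and a minimum total of 15, robust quasi-likelihood fit), with Benjamini-Hochberg adjustment over all genes tested and a threshold of 0.05. Diet effects were fitted on the 2 groups compared, interactions with sex and female against male on the 4 groups of a tissue, and tissue comparisons on all tissues of a sex with mouse number as a block. Log2 CPM, for likeness and the pairing check, used a prior count of 2. The library of AL mouse 1 in cortex was left out because its Xist and Ddx3y counts go against its male label. The alternatives were DESeq2 1.42.0, DESeq2-style size factors (RLE) in edgeR, no filter and a stricter one, a minimum fold of 2, unadjusted p-values, 4-group fits, a block for replicate number, no mouse block, the left-out library kept, and libraries left out. Plots used Python 3.11.15 and matplotlib 3.10.9. The scripts were tested on simulated data.

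The 8 members are named throughout. Of each list of related genes, at most 4 genes with the largest absolute log2 fold change among those past the threshold are named in a comparison. The members and lists were chosen with earlier results of these data known. Promoters came from RefSeq.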

Additional observations from a re-analysis of the deposited data

Results flagged for a closer look

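Within groups of 7 or 8 libraries, 88 groups of a member's CPM were examined for a lowest or highest library that stood far from the rest by Dixon's criterion, and 8 did. Chance gives this in about 1 in 20 groups.

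In liver, Igf1 of AL female mouse 31 was 1678 CPM, above a next value of 1431 CPM. Igfals of IF male mouse 9 was 76.3 CPM, below a next value of 107 CPM. Igfbp1 of AL female mouse 29 was 51.7 CPM, and the next AL female stood at 4.43 CPM. Igfbp3 was 41.1 CPM in IF female mouse 34 against a next value of 19.98 CPM, and 32.6 CPM in AL male mouse 2 against 20.8 CPM. In cortex, Igf2 was 1.29 CPM in AL female mouse 26 against a next value of 0.58 CPM. IF female mouse 36 was highest in cortex for both Igfbp2, at 191 CPM against 85.2 CPM, and Igfbp3, at 15.8 CPM against 11.3 CPM. The same cortex library of mouse 36 had the highest sum of its group over 5 choroid plexus markers, 122 CPM, and over 7 leptomeningeal markers, 80.1 CPM, and the lowest over 5 neuronal markers, 4923 CPM. The part of these cells in its Igfbp2 and Igfbp3 levels was not tested.

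An interaction test of a diet effect passed in 7 cases, of which that of Igfbp1 between liver and cortex is not read as a difference. Between females and males, coded as female minus male, the log2 difference was -4.04 for Igfbp1 in liver, -1.51 for Igfbp2 in liver and -0.55 for Igfbp4 in cortex. Between tissues of males it was -0.50 for Igf1 and 1.17 for Igfbp5, liver minus muscle, and 2.06 for Igfbp2, liver minus cortex. The value of 3.39 for Igfbp1, liver minus cortex, carries its liver effect, since Igfbp1 in male cortex was at 0 to 5 counts a library, too low to measure a diet effect there.

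In data outside the comparisons, the left-out cortex library of AL mouse 1, labelled male, held 10219 counts of Xist, a transcript made from the inactive X chromosome of females.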

How the results depend on the processing

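For single members, 541 of 547 values under an alternative kept their side of the threshold, a count that leaves out the settings of a 2-fold minimum and of an unadjusted p. No called value changed sign. Some uncalled values did, as Igfbp1 in female liver (-0.84, and 0.88 without mouse 29), Igfals in male liver (-0.011, and 0.017 with the replicate block) and Igfbp1 between liver and muscle in females (-0.17, and 0.17 with DESeq2). Over the alternatives run for each, the log2 fold change in male liver ranged from 3.19 to 3.42 for Igfbp1 (adjusted p 1.54e-10 to 0.00253), from 1.66 to 1.81 for Igfbp2 (5.92e-22 to 7.1e-07) and from 0.47 to 0.51 for Igfbp4 (0.00203 to 0.0204). That of Igfbp5 in male muscle ranged from -0.82 to -0.80 (2.27e-09 to 0.0130) and that of Igfbp4 in male cortex from 0.34 to 0.41 (2.76e-06 to 0.0371). The 6 exceptions follow, and for them and for the counts below the cause was not tested unless stated. In males, Igf1 in the liver-minus-muscle interaction was -0.47 both with RLE size factors (adjusted p = 0.0594) and with DESeq2 (0.0552) and no longer passed, so RLE left 1 member called there. With DESeq2 that interaction passed for Igfbp1 (3.38), as did muscle against cortex in AL females (-3.17), although Igfbp1 has 0 counts in muscle. Over the 40220 genes DESeq2 fitted, without the low-count filter of the main test, the median log2 difference was -0.13 between liver and muscle and -0.16 between liver and cortex, against 0.0066 and 0.013 over the 21608 genes of the main test, so these medians are not of the same genes. Leaving out AL female mouse 29, an alternative chosen after seeing the data, gave -2.07 for Igfbp1 and 0.64 for Igfbp2 between AL females and males in liver.

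The number of genes called moved by more than 1.5 times in some settings. DESeq2 called 4 genes in female liver, 82 in female muscle, 2170 in male cortex, 64 in female cortex, 709 in the cortex interaction of diet and sex, and 36 (liver minus muscle) and 56 (liver minus cortex) in the female tissue interactions, where RLE gave 2 for the first. A minimum fold of 2, stricter by construction, left 2388 genes in male liver with 2 members, Igfbp4 (0.51) being lost, 399 in male muscle with 0 members, and 89 in male cortex with 0 members. An unadjusted p under 0.05 was reached by 919 genes in female liver, 5309 in male muscle, 1644 in female muscle with 1 member, 4400 in male cortex and 2069 in female cortex. Without a filter, 5 genes were called in female muscle. A fit over the 4 groups of a tissue called 38 genes in female muscle, 2044 in male cortex and 4 in female cortex. In male cortex 498 genes were called without AL mouse 2 and IF mouse 10, fewer samples, and 294 with the left-out library of AL mouse 1 kept. Igfbp4 passed in both.

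Replicate numbers are shared by AL and IF mice that are different animals, and the median correlation of such pairs after removing group means was between -0.10 and 0.07 in the 6 sets of tissue and sex, so they were not treated as pairs. With the replicate number as a block, 382 genes were called in male cortex and 0 in female cortex.

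With 26097314 to 49838004 counts a library, Igf2 in liver and Igfbp1 in muscle could not be seen below their floors, and differences in Igf2, Igfals and Igfbp1 in cortex and in Igfbp2 in muscle rest on few counts. RNA levels give no protein levels of the secreted factors. The exons that Igf2 shares with Gm49394 limit its counts.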

Other observations

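AL female mouse 29, whose liver had the highest Igfbp1 of its group, was also the highest of the 8 AL females for 5 of the 9 listed FoxO and fasting-responsive genes. Pck1 was 1521 CPM against at most 928 CPM in the other AL females, G6pc was 319 CPM against at most 86.9 CPM, and Fgf21 was 7.97 CPM against at most 4.61 CPM. Cebpb, at 199 CPM, and Foxo4, at 34.998 CPM, lay close to the next library. Foxo1, at 16.5 CPM, was the second lowest of the group and Foxo3, at 32.4 CPM, the lowest. These genes were read in this mouse after its Igfbp1 value was seen, and when the mouse last ate is not given in the sources used here.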
